A study of Homo sapiens with 12 samples.

Results

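The 38 aminoacyl-tRNA synthetase genes, 21 for enzymes of the cytosol and 17 for enzymes of the mitochondrion, were followed among the 23500 genes of the table in HEK293T cells and in R1 cells. A gene was a member if its symbol was a single amino acid letter followed by ARS, with or without 1, 2 or 3, or was EPRS1, FARSA or FARSB, and genes ending in 2 were taken as mitochondrial. No measured value chose the genes, but 51 entries carried these symbols, and for each symbol the entry with the highest summed count was used. HEK293T is a human embryonic kidney line that was transformed with adenovirus and expresses SV40 large T antigen, and it needs methionine in the medium. R1 is 1 clone isolated from HEK293T that proliferates with homocysteine, the precursor of methionine, in place of methionine, so differences between the lines are those between this clone and its parent. Both lines were sequenced after 12 h in methionine medium (+Met) or in methionine-free medium with homocysteine (−Met+Hcy), with 3 libraries per group and 4 groups in all. The labels give R1 in the library titles and HEK293T as its cell line, and they do not say that the 3 libraries of a group came from separate cultures, so p-values measure the spread between these libraries, which may be technical.

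Each aminoacyl-tRNA synthetase joins an amino acid to the tRNAs that decode it, and this supplies the ribosome with its substrates. Most amino acids have a cytosolic enzyme and a separate mitochondrial enzyme, both encoded in the nucleus, whereas GARS1 and KARS1 serve both compartments and EPRS1 charges both glutamate and proline. Several cytosolic enzymes are held in the multisynthetase complex by the scaffold proteins AIMP1, AIMP2 and EEF1E1. When amino acids run short, uncharged tRNA activates the kinase GCN2, translation of the transcription factor ATF4 rises, and many cytosolic synthetase genes are known ATF4 targets that carry a C/EBP-ATF response element, a composite site for ATF4 and a C/EBP partner.

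Promoter windows from RefSeq (GRCh38.p14, 250 bases before to 50 after the annotated start) matched 30 of the 38 genes, 16 cytosolic and 14 mitochondrial. YARS1 was among the genes without a window, and these were not searched. For each synthetase 1 window was used, whereas the set of all windows can hold several for a gene. The windows were searched on both strands for TGATGNAA, the core of the C/EBP-ATF element, and for its most common form TGATGCAA, of which every match is also a match to TGATGNAA. TGATGNAA lay in 6 of the 16 cytosolic windows (37.5%), in 1 of the 14 mitochondrial windows (7.143%) and in 1266 of all 34943 windows of the same length (3.623%). TGATGCAA lay in the same number of cytosolic windows, 6 of 16, in none of the 14 mitochondrial windows and in 304 of all windows (0.87%). The 6 cytosolic genes were AARS1, CARS1, IARS1, MARS1, NARS1 and TARS1, and the mitochondrial gene was YARS2, whose match was TGATGGAA. A match is a description of the letters and not a site shown to bind. The windows of CARS1, IARS1, MARS1 and NARS1 are shown because each holds the motif and each gene passed a test below. Those of RARS1 and PARS2 are shown because both passed a test and hold no match. With all libraries, CARS1 and MARS1 passed for the medium response of HEK293T cells, whereas IARS1 and NARS1 passed only between the lines. SARS1 and FARSA also passed for that medium response, and their windows, not shown, hold no match. Capitals mark the match, which reads TTGCATCA where the motif is on the strand opposite to the gene. The windows lie at chr11:3057374-3057673 (CARS1, minus strand), chr9:92293648-92293947 (IARS1, minus strand), chr12:57487818-57488117 (MARS1, plus strand), chr18:57621787-57622086 (NARS1, minus strand), chr5:168486221-168486520 (RARS1, plus strand) and chr1:54764474-54764773 (PARS2, minus strand).
CARS1: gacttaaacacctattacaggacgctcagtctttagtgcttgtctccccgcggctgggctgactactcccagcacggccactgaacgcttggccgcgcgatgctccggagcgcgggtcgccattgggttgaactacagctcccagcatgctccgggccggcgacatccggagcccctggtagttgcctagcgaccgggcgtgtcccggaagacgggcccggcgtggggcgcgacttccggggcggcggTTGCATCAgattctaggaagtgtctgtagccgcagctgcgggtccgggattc
IARS1: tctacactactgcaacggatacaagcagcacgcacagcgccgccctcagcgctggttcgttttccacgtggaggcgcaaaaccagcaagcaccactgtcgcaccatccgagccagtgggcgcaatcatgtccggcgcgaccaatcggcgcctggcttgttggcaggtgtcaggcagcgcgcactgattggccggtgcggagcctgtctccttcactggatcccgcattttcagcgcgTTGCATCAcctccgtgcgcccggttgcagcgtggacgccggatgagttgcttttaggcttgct
MARS1: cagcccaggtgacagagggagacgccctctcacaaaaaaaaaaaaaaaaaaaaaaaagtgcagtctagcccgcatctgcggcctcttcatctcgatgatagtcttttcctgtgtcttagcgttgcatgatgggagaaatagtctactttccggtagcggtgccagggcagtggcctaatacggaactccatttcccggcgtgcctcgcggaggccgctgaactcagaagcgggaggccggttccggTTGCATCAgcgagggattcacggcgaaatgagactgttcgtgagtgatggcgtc
NARS1: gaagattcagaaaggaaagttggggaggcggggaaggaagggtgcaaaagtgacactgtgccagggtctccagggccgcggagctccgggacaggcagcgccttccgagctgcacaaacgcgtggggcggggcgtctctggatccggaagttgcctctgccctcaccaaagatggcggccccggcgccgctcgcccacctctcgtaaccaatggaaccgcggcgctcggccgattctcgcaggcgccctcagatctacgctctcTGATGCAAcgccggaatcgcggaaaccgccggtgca
RARS1: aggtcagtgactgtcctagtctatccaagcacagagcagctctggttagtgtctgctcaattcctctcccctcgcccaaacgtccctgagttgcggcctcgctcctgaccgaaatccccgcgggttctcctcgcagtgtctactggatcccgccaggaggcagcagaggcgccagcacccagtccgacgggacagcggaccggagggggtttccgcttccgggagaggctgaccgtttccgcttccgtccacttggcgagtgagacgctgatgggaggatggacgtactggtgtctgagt
PARS2: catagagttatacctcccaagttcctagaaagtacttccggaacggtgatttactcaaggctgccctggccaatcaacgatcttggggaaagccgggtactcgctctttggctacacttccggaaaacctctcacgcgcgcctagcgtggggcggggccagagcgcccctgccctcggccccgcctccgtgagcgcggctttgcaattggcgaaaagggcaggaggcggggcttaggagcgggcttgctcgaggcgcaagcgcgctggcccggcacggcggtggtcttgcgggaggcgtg
The match began at position −2 from the start in CARS1, −13 in IARS1, −4 in MARS1 and 15 in NARS1. In the windows not shown it began at 3 in TARS1, at −187 in AARS1 and at −197 in YARS2, so it lay close to the start in 5 of the 7 windows that hold it.

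Total counts ran from 12664158 to 18771349 per library, and every synthetase gene passed the filter of a summed count of at least 10. Levels are given in CPM, counts scaled to an equal library total, and fold changes were fitted after TMM scaling, which assumes that most genes do not change. The TMM factors were 0.828 to 0.882 in HEK293T +Met and 0.930 to 1.12 in the other libraries. Scaling by library totals alone moved the median log2 fold change of all genes tested in HEK293T cells from 0.03 to 0.33 and in R1 against HEK293T cells in +Met from 0.02 to 0.37, so that changes are given relative to the bulk of genes and a CPM ratio can exceed the fitted fold. The library R1 −Met+Hcy replicate 3 stood apart. Its deviation from the other libraries of its group fell with the GC content of the gene (Spearman's rho −0.744 over 11043 genes, which share 1 library). In R1 −Met+Hcy replicates 1 and 2, whose deviation is taken in part from replicate 3, rho was 0.600 and 0.730. In the other groups it ran from −0.338 to 0.537. The chi-square per gene of replicate 3 against the other libraries of its group was 205 and 236, against 7.13 to 90.1 within the other pairs. VARS1 had 0 counts there, against 415 and 320 in the other R1 −Met+Hcy libraries, and SARS2 had 20 against 256 and 242. Without this library the common dispersion of the model went from 0.109 to 0.0349, and the results below are given with it and without it. Of the markers of the HEK293T lineage, LIN28B, KRT8 and KRT18 had means of 12.7 to 67.0 CPM, whereas PAX2 and EPCAM had group means under 6 CPM. Markers of blood, liver and endothelial cells (PTPRC, ALB, PECAM1) had group means of 0 to 0.340 CPM, and COL3A1, a collagen of fibroblasts, had 13.6 to 30.6 CPM.

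At the median, cytosolic synthetases were expressed above mitochondrial ones in every group. Per kilobase of the canonical transcript, the median level in HEK293T +Met was 84.2 CPM per kb for the 21 cytosolic genes and 14.0 CPM per kb for 16 mitochondrial genes, since VARS2 had no length. The range reached from 8.50 CPM per kb for TARS3, a second threonyl-tRNA synthetase, to 185 CPM per kb for KARS1, the lysyl enzyme, among cytosolic genes, and from 4.20 for EARS2, the glutamyl enzyme, to 97.6 for IARS2, the isoleucyl enzyme, among mitochondrial genes. In R1 +Met the medians were 86.3 and 17.5 CPM per kb. There IARS2 was the highest of all synthetases at 174 CPM per kb, above KARS1 at 155 CPM per kb.

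Summed over its members, the cytosolic group took 5381, 5794 and 4933 CPM in the HEK293T +Met libraries and 8004, 8198 and 7799 CPM in HEK293T −Met+Hcy, so the groups did not overlap. In R1 cells the sums were 5511, 5207 and 5721 CPM in +Met and 5516, 5709 and 5281 CPM in −Met+Hcy, and the groups overlapped. The mitochondrial sums were 1128 ± 56.5 CPM (SD, n = 3) in HEK293T +Met, 1400 ± 64.8 in HEK293T −Met+Hcy, 1656 ± 38.7 in R1 +Met and 1474 ± 265 in R1 −Met+Hcy. These sums are scaled by library totals alone, under which the median of all genes also rose from HEK293T +Met to HEK293T −Met+Hcy and to R1 +Met. After TMM scaling, the HEK293T medium response had a median log2 fold change of 0.12 over cytosolic and −0.10 over mitochondrial genes. The mitochondrial median for R1 against HEK293T in +Met was −0.16. The ratio of the cytosolic to the mitochondrial sum does not depend on library scaling. It was 4.86, 4.86 and 4.55 in HEK293T +Met and 5.57, 5.70 and 5.88 in HEK293T −Met+Hcy. In R1 cells it was 3.33, 3.22 and 3.38 in +Met and 3.43, 3.46 and 4.52 in −Met+Hcy. The 4.52 is the library that stood apart, and every R1 library lay below every HEK293T library. The sums weigh highly expressed genes most, such as IARS2, at 97.6 CPM per kb in HEK293T +Met and 174 in R1 +Met. After TMM scaling, 10 of the 17 mitochondrial and 17 of the 21 cytosolic genes were lower in R1 than in HEK293T cells in +Met.

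**Figure D1:**
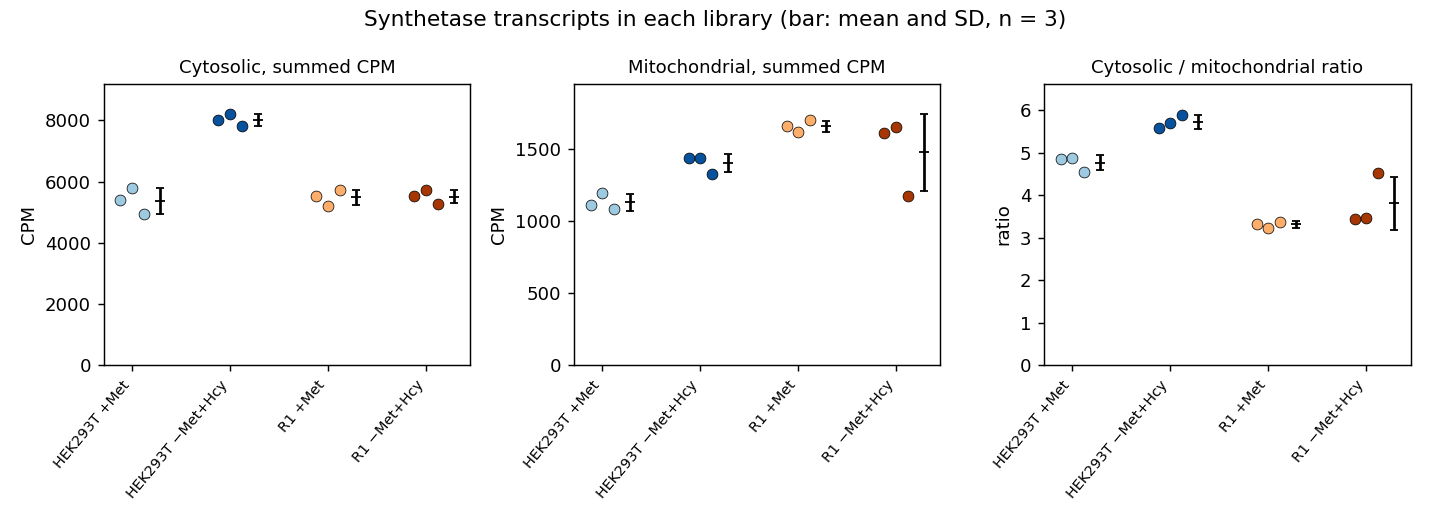
Summed CPM of the 21 cytosolic genes (left), of the 17 mitochondrial genes (middle) and their ratio (right) for each library, by group; points are libraries and the bar gives the mean and SD of 3. The cytosolic sum, scaled by library totals alone, lies between 7799 and 8198 CPM in HEK293T −Met+Hcy and between 4933 and 5794 CPM in the other groups.

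In HEK293T cells, 4 of the 21 cytosolic synthetases, CARS1, YARS1, SARS1 and MARS1, rose when homocysteine replaced methionine, and 2, RARS1 and FARSA, fell. Of the 17 mitochondrial genes, PARS2 rose and none fell. Of all genes tested, 4.25% were called higher and 2.78% lower, where called means an adjusted p under 0.05 in edgeR's quasi-likelihood test. The median log2 fold change was 0.12 over the cytosolic genes and −0.10 over the mitochondrial genes, beside 0.03 over all genes tested. In RNA from bulk cultures, a change in each cell and a change in the share of cells that express a gene cannot be told apart.

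YARS1 (chr1:32775237-32818031, minus strand, GRCh38), the tyrosyl-tRNA synthetase, measured 346, 362 and 306 CPM in +Met and 814, 820 and 770 CPM in −Met+Hcy. The groups lay far apart, and the gene rose by 0.95 ± 0.17 on the log2 scale (SE; adjusted p = 0.00673). CARS1, which charges cysteine, went from 34.9, 38.0 and 33.0 CPM to 97.8, 95.2 and 80.2 CPM, a log2 fold change of 1.07 ± 0.25 (adjusted p = 0.025). MARS1 charges methionine, the amino acid withdrawn, and it starts every cytosolic protein by charging the initiator tRNA. Its level was 355, 345 and 325 CPM in +Met and 685, 722 and 729 CPM in −Met+Hcy, with no overlap, and its log2 fold change was 0.77 ± 0.17 (adjusted p = 0.0206). SARS1 (chr1:109213918-109238182, plus strand), the seryl enzyme, went from 253, 257 and 267 CPM to 492, 554 and 602 CPM (log2 fold change 0.80 ± 0.20, adjusted p = 0.0334). PARS2, the mitochondrial prolyl enzyme, had the largest fold change of the 38 genes in this comparison. It measured 15.6, 18.1 and 20.3 CPM in +Met and 53.7, 64.7 and 62.2 CPM in −Met+Hcy, a 2.73-fold rise (log2 fold change 1.45 ± 0.32, adjusted p = 0.0203).

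In the opposite direction, RARS1, the arginyl enzyme of the multisynthetase complex, measured 227, 251 and 189 CPM in +Met and 135, 139 and 122 CPM in −Met+Hcy. The groups did not overlap, and the log2 fold change was −1.04 ± 0.19 (adjusted p = 0.00858). FARSA (chr19:12922479-12934037, minus strand), the catalytic subunit of the phenylalanyl enzyme, went from 256, 216 and 207 CPM to 151, 153 and 134 CPM (log2 fold change −0.93 ± 0.21, adjusted p = 0.0235), whereas its partner FARSB gave −0.32 ± 0.24 and did not pass the test. MARS2, the mitochondrial methionyl enzyme, had 33.5, 32.9 and 31.3 CPM in +Met and 40.0, 47.2 and 39.6 CPM in −Met+Hcy. Its fitted log2 fold change was 0.08 ± 0.54 (adjusted p = 0.953), with a 95% interval from −1.09 to 1.26.

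The number of calls depended on single libraries. Without R1 −Met+Hcy replicate 3, which is not part of the comparison and enters through the shared spread, 11 synthetases were higher and 9 lower, with 15.2% and 12.5% of all genes called. The cytosolic genes then called higher were CARS1, EPRS1, GARS1, IARS1, MARS1, SARS1, TARS1 and YARS1, and those called lower included FARSA, KARS1, QARS1, RARS1 and VARS1. Among mitochondrial genes PARS2, TARS2 and VARS2 were then higher and EARS2, HARS2 and SARS2 lower. Leaving out any 1 of the HEK293T libraries left 2 genes called, YARS1 and RARS1, or 3 where HEK293T −Met+Hcy replicate 1 was left out, the other being PARS2, and 1.70% to 3.02% of all genes were then called. With library totals as the scaling, chosen after the data were seen, 10 synthetases were called higher and 1, RARS1, lower (log2 fold change −0.75), and FARSA at −0.63 was no longer called. Of all genes, 10.5% were called higher and 1.24% lower under that scaling, and the median of the 38 genes was 0.36 beside 0.33 over all genes.

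**Figure D2:**
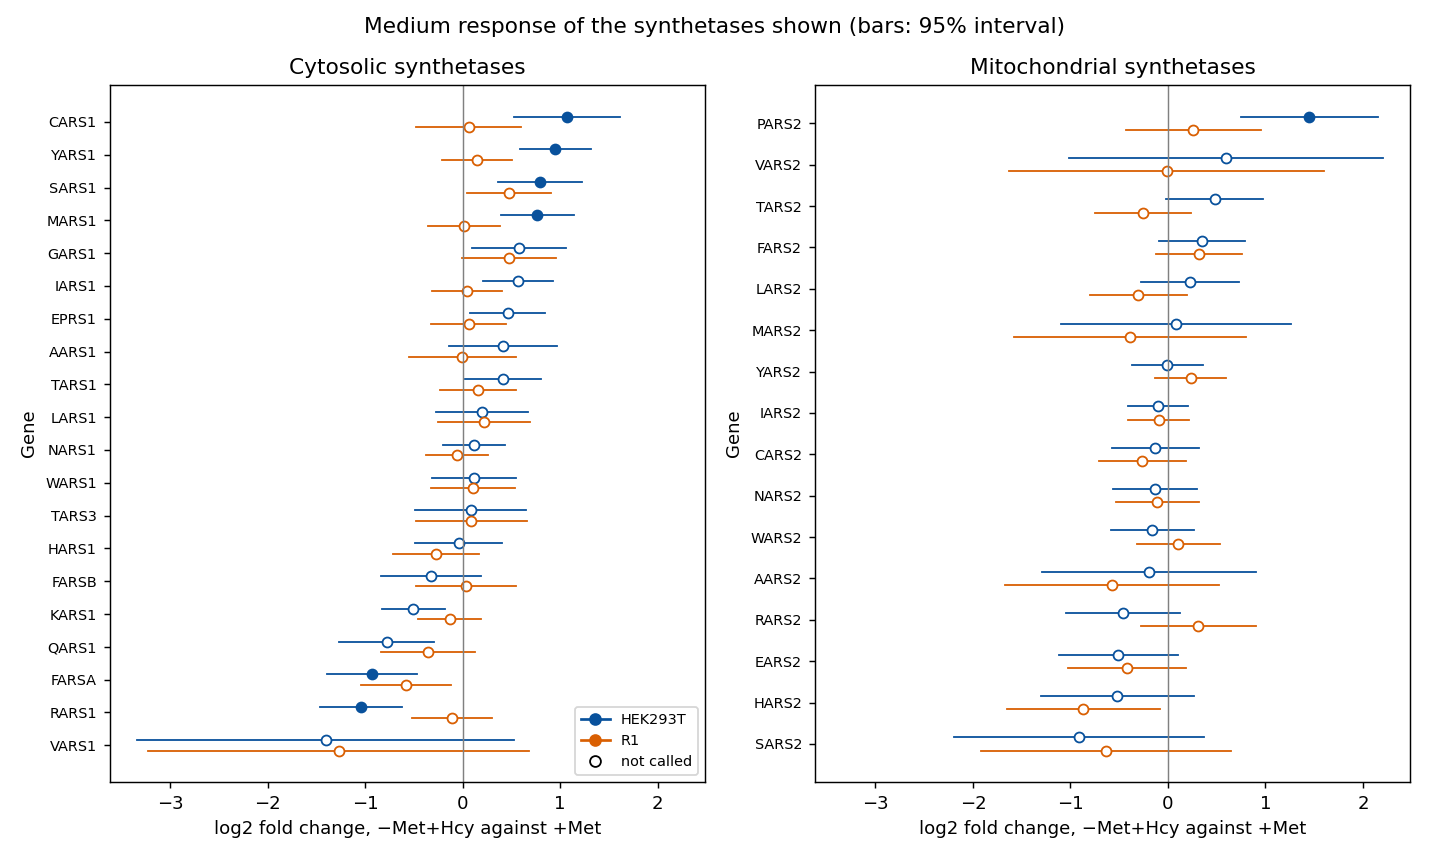
Log2 fold change of the synthetases shown, −Met+Hcy against +Met, in HEK293T (blue) and R1 cells (orange), for cytosolic (left) and mitochondrial genes (right); bars are 95% intervals and filled points passed an adjusted p of 0.05. In HEK293T cells 7 points are filled, from PARS2 at 1.45 to RARS1 at −1.04, and in R1 cells none is.

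A list of 13 cytosolic synthetases known as amino acid response targets came from background knowledge, with earlier results of these data known. The list is therefore not independent of these data. In HEK293T cells 12 of the 13 had a log2 fold change above 0, with a median of 0.46. Of these, 4 were called higher (CARS1, MARS1, SARS1, YARS1), beside 4.25% of all genes tested. The exception was VARS1, at −1.41 ± 0.89. Of all 21 cytosolic synthetases 13 were above 0, and of all 38 synthetases 20 were. Without R1 −Met+Hcy replicate 3, 8 of the 13 listed targets were called higher and VARS1 was called lower, beside 15.2% and 12.5% of all genes. ASNS, the asparagine synthetase that reports this response, measured 251, 306 and 272 CPM in +Met and 700, 836 and 988 CPM in −Met+Hcy (log2 fold change 1.32 ± 0.25, adjusted p = 0.0107). ATF4 itself measured 998, 899 and 932 CPM against 1340, 1538 and 1521 CPM, and its log2 fold change of 0.34 ± 0.17 did not pass (adjusted p = 0.265). ATF4 is controlled mainly at translation, which RNA sequencing does not measure.

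The enzymes of the multisynthetase complex moved in both directions. Of the 8, MARS1 rose and RARS1 fell, and the median was −0.16. Without the library that stood apart, EPRS1, IARS1 and MARS1 were called higher, KARS1, QARS1 and RARS1 were among those called lower, and LARS1, the leucyl enzyme, was in neither set. All 3 scaffold genes had log2 fold changes below 0. AIMP2 went from 150, 133 and 146 CPM to 65.3, 78.3 and 86.3 CPM (log2 fold change −1.19 ± 0.21, adjusted p = 0.00695), and EEF1E1 (−0.79) and AIMP1 (−0.62) were called without that library but not with it. Among 16 other genes that process or use tRNA, a list that includes these scaffolds, SEPSECS, which makes selenocysteinyl-tRNA, was called higher (log2 fold change 0.71 ± 0.19, adjusted p = 0.0451) and AIMP2 lower. By the structural classes of synthetases, 3 of 18 class I genes were called higher and 1 lower, with a median of 0.04. For class II it was 2 of 19 higher and 1 lower, with a median of 0.05. Of all genes tested with all libraries, 4.25% were called higher and 2.78% lower.

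Setting the 2 enzymes of each amino acid side by side gave 18 pairs, in which EPRS1 and FARS2 each enter more than once. The cytosolic gene had the higher log2 fold change in 10 pairs in HEK293T cells, and the median difference was 0.26. For methionine the cytosolic and mitochondrial log2 fold changes were 0.77 and 0.08, for tyrosine 0.95 and −0.01, and for cysteine 1.07 and −0.13. For proline and valine the order was the reverse. PARS2 stood at 1.45 and EPRS1 at 0.46, whereas VARS2 stood at 0.60 and VARS1 at −1.41, and neither valyl gene passed the test with all libraries. For VARS1, VARS2 and CARS1 the table holds entries on alternate haplotypes, among which the quantification can divide reads. When the distinct entries of a symbol were summed, a setting chosen after the data were seen, CARS1 gave 1.01 (adjusted p = 0.00803) and VARS1 gave −1.18 (adjusted p = 0.0718). Distinct means that only copies identical in every library were left out. VARS1 entries that differed in HEK293T +Met replicate 1 alone (1678 and 1629 counts) were both added. HARS1 and HARS2 are transcribed away from each other, and their annotated ends overlap on chromosome 5 (HARS1 140673035 to 140691537, HARS2 140691430 to 140699305), so that reads from the overlap may not be assigned with certainty.

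In R1 cells, no synthetase passed the test between −Met+Hcy and +Met in edgeR, with or without R1 −Met+Hcy replicate 3, nor in DESeq2 or in limma voom with sample weights on all 12 libraries. Few genes of any kind did, at 0.00583% of those tested with all libraries and 0.0176% without replicate 3. The median log2 fold change was 0.04 over cytosolic and −0.14 over mitochondrial genes, beside −0.02 over all genes tested. Without replicate 3 both medians were −0.07, beside 0.00419 over all genes, so that the cytosolic median turned its sign. The 3 synthetases of smallest p-value in edgeR were SARS1, which was higher, and FARSA and HARS2, which were lower. FARSA measured 156, 123 and 155 CPM in +Met and 106, 123 and 57.7 CPM in −Met+Hcy, where the lowest value is the library that stood apart, and its log2 fold change was −0.58 ± 0.21 (adjusted p = 0.622). SARS1 measured 254, 321 and 250 CPM against 397, 321 and 389 CPM (0.47 ± 0.20, adjusted p = 0.622). HARS2, the mitochondrial histidyl enzyme, went from 45.8, 43.5 and 51.0 CPM to 34.2, 35.1 and 8.36 CPM (−0.87 ± 0.36, adjusted p = 0.622).

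The 7 genes called in HEK293T cells had log2 fold changes of the same sign in R1 cells, from −0.58 for FARSA to 0.47 for SARS1, and none was called. PARS2 stood at 0.26 and CARS1 at 0.06 with all libraries, and at 0.60 and 0.33 without R1 −Met+Hcy replicate 3, where FARSA was at −0.38 and SARS1 at 0.34. YARS1 measured 343, 302 and 358 CPM in R1 +Met and 406, 421 and 263 CPM in R1 −Met+Hcy, so the groups overlapped, and its log2 fold change was 0.14 (95% interval −0.21 to 0.50). MARS1 measured 344, 336 and 334 CPM against 401, 371 and 238 CPM, with a log2 fold change of 0.02 (−0.35 to 0.39). RARS1 measured 247, 245 and 271 CPM against 198, 221 and 259 CPM (−0.11, interval −0.52 to 0.30). In these genes replicate 3 lay outside the other 2 libraries, and without it the log2 fold changes were 0.26 for YARS1, 0.15 for MARS1 and −0.33 for RARS1. MARS2 measured 22.8, 26.5 and 19.1 CPM against 28.7, 22.7 and 2.18 CPM, and its log2 fold change went from −0.39 to 0.12 without replicate 3. ASNS measured 126, 171 and 122 CPM in R1 +Met and 254, 186 and 283 CPM in R1 −Met+Hcy (0.85 ± 0.25, adjusted p = 0.622).

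**Figure D3:**
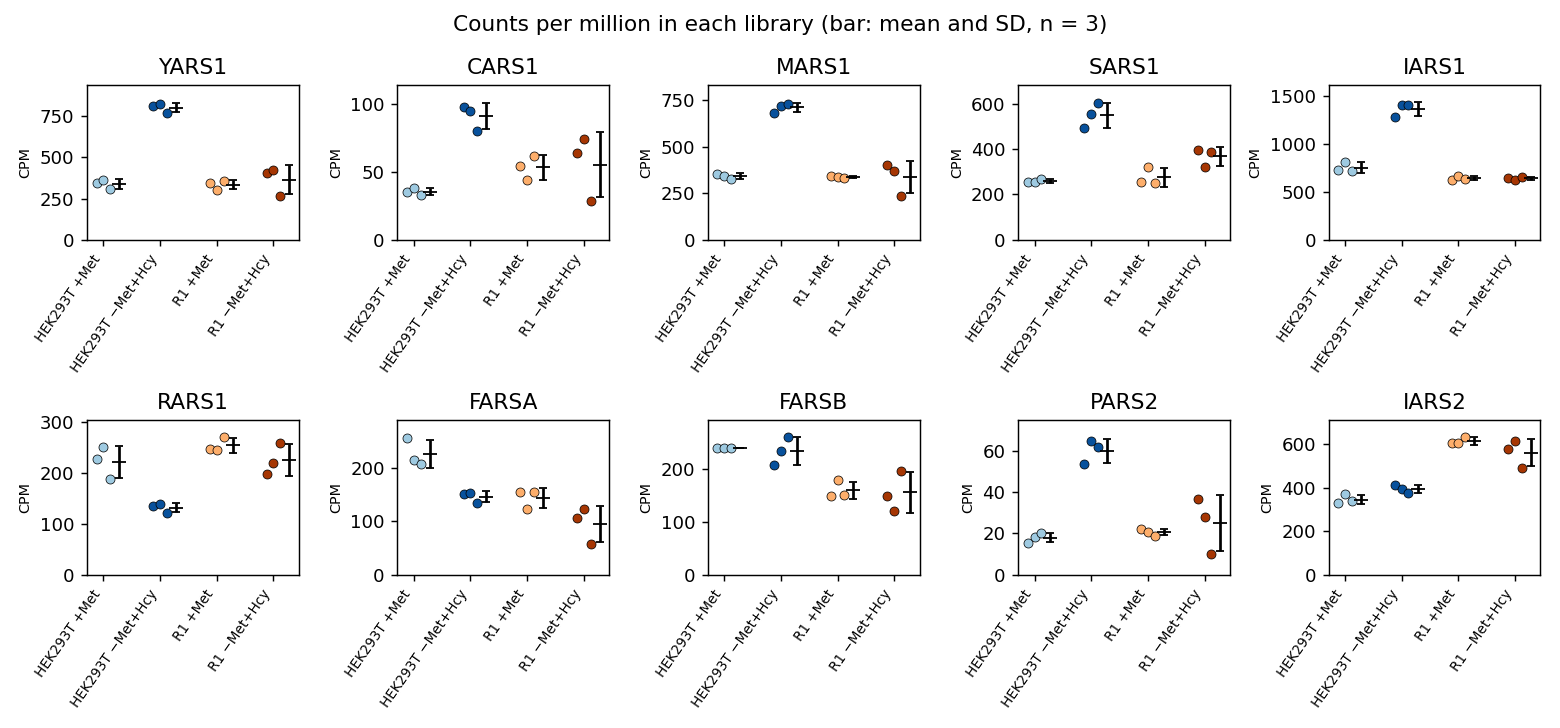
CPM of 10 synthetases called in at least 1 comparison in each of the 12 libraries; points are libraries and the bar gives the mean and SD of 3. YARS1, MARS1, CARS1, SARS1 and IARS1 are highest in HEK293T −Met+Hcy, RARS1 is lowest there, and IARS2 is higher in R1 than in HEK293T cells in both media.

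Whether the medium responses themselves differed between the lines was tested directly, and edgeR called 0 of the 38 genes, with all libraries and without R1 −Met+Hcy replicate 3. Of all genes tested, 0.0583% and 1.68% were called in these fits. The median difference was −0.12 over the 38 genes, beside −0.06 over all genes tested. Without R1 −Met+Hcy replicate 3 it was −0.03, beside −0.02. The smallest p-values belonged to YARS1, with a difference (R1 minus HEK293T) of −0.81 ± 0.23 and a 95% interval of −1.31 to −0.30 (adjusted p = 0.32), to RARS1 with 0.93 ± 0.27 and an interval of 0.35 to 1.52 (adjusted p = 0.32), and to MARS1 with −0.75 ± 0.24 and an interval of −1.27 to −0.23 (adjusted p = 0.354). Without replicate 3 the adjusted p was 0.0785 for YARS1, 0.0804 for RARS1 and 0.108 for MARS1. DESeq2 called YARS1 and RARS1, with 1.44% of all genes called, and limma voom, which gave replicate 3 a weight of 0.0327, called 12 synthetases and 13.4% of all genes. With each library's trend on GC content and length removed and replicate 3 left out, a setting chosen after the data were seen, edgeR called 7 synthetases and 8.41% of all genes. Of the 7, CARS1, IARS1, MARS1, YARS1 and PARS2 had a difference below 0 and QARS1 and SARS2 above 0.

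In +Met medium, where both lines proliferate, R1 cells had 4 cytosolic synthetases called lower than HEK293T cells, FARSA, FARSB, KARS1 and IARS1, and 1 mitochondrial gene called higher. Of all genes tested, 5.69% were called higher and 4.48% lower. FARSA measured 256, 216 and 207 CPM in HEK293T cells and 156, 123 and 155 CPM in R1 cells (log2 fold change −1.003 ± 0.21, adjusted p = 0.0122). Its partner subunit FARSB measured 239, 239 and 240 CPM against 149, 178 and 151 CPM (−0.94 ± 0.24, adjusted p = 0.0274), so both subunits of the cytosolic phenylalanyl enzyme were lower in R1. KARS1 measured 380, 373 and 352 CPM against 311, 300 and 316 CPM (−0.61 ± 0.15, adjusted p = 0.0247). IARS1, the cytosolic isoleucyl enzyme, measured 728, 818 and 723 CPM against 626, 671 and 641 CPM (−0.58 ± 0.17, adjusted p = 0.0453).

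These calls also depended on the scaling and on single libraries. With library totals as the scaling no cytosolic gene was called in either direction, and 3 mitochondrial genes, IARS2 and LARS2 among them, were called higher, with 13.1% of all genes called higher and 2.08% lower. Without R1 −Met+Hcy replicate 3, 3 synthetases were higher, IARS2 and LARS2 among them, and 16 lower, 8 of them cytosolic and 8 mitochondrial, with 17.0% and 15.7% of all genes called. MARS1 and MARS2 were then both among those called lower, at −0.37 and −0.86. Without HEK293T +Met replicate 1 no synthetase was called, with 4.71% of all genes called. Without HEK293T +Met replicate 2 or 3, or R1 +Met replicate 1 or 3, FARSA was the only one called, with 3.67% to 5.55% of all genes, and without HEK293T −Met+Hcy replicate 2 the number was 3, with FARSA and FARSB among them and 7.27% of all genes called. Among the 16 tRNA partner genes, 5 were called lower in R1 +Met with all libraries and none higher, beside 4.48% and 5.69% of all genes tested. They were EEF1E1, the tRNA exporter XPOT, the peptidyl-tRNA hydrolase PTRH2, and GATC and QRSL1, subunits of the amidotransferase that makes mitochondrial glutaminyl-tRNA. XPOT measured 344, 366 and 335 CPM in HEK293T and 182, 186 and 189 CPM in R1 cells (log2 fold change −1.26 ± 0.22, adjusted p = 0.00475).

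In −Met+Hcy medium, R1 cells had 6 synthetases called lower than HEK293T cells and 2 called higher, with 6.76% and 7.20% of all genes called lower and higher. This comparison shares its HEK293T −Met+Hcy libraries with the medium comparison above, so the genes that stood high there enter both. YARS1 at 406, 421 and 263 CPM in R1 cells lay below 814, 820 and 770 CPM in HEK293T cells (log2 fold change −1.18 ± 0.17, adjusted p = 0.000997). MARS1 was at 401, 371 and 238 CPM against 685, 722 and 729 CPM (−1.12 ± 0.17, adjusted p = 0.00151). IARS1 was at 652, 626 and 658 CPM against 1283, 1407 and 1410 CPM (−1.09 ± 0.17, adjusted p = 0.00146). In these 3 genes every R1 library was below every HEK293T library. PARS2 (−1.34 ± 0.32, adjusted p = 0.0159), FARS2, the mitochondrial phenylalanyl enzyme (−0.69 ± 0.20, adjusted p = 0.0422), and NARS1, the asparaginyl enzyme (−0.49 ± 0.15, adjusted p = 0.0435), were also lower.

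The 2 genes higher in R1 were RARS1 and IARS2. RARS1 was at 198, 221 and 259 CPM in R1 and at 135, 139 and 122 CPM in HEK293T cells (0.78 ± 0.19, adjusted p = 0.0184), and IARS2 at 575, 612 and 491 CPM and at 411, 391 and 375 CPM (0.49 ± 0.14, adjusted p = 0.0382). All 13 amino acid response targets had log2 fold changes below 0, with a median of −0.49, and 4 were called lower, beside 6.76% of all genes. In +Met medium 11 of the 13 were already below 0, with a median of −0.26, and in −Met+Hcy 30 of all 38 synthetases were below 0, with a median of −0.39. Without replicate 3 of R1 −Met+Hcy, 4 synthetases were higher, QARS1, RARS1 and IARS2 among them, and 16 lower, with 15.7% and 14.6% of all genes called, and 10 of the 13 targets were among the lower ones. Without HEK293T −Met+Hcy replicate 2 or 3, YARS1, MARS1 and IARS1 alone of the synthetases were called, with 6.34% and 6.86% of all genes. Without HEK293T +Met replicate 1, 2 or 3, or R1 +Met replicate 1 or 3, these 3 genes, PARS2 and RARS1 were, with 11.2% to 11.7% of all genes, and without HEK293T −Met+Hcy replicate 1 the 5 called were these 3, FARS2 and PARS2, with 8.77% of all genes. Of the 16 tRNA partner genes, XPOT, PSTK, SEPSECS, GATC and QRSL1 were called lower with all libraries and none higher. Of all genes, 6.76% were called lower and 7.20% higher in that fit. XPOT was at −1.21 ± 0.22 (adjusted p = 0.00417).

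**Figure D4:**
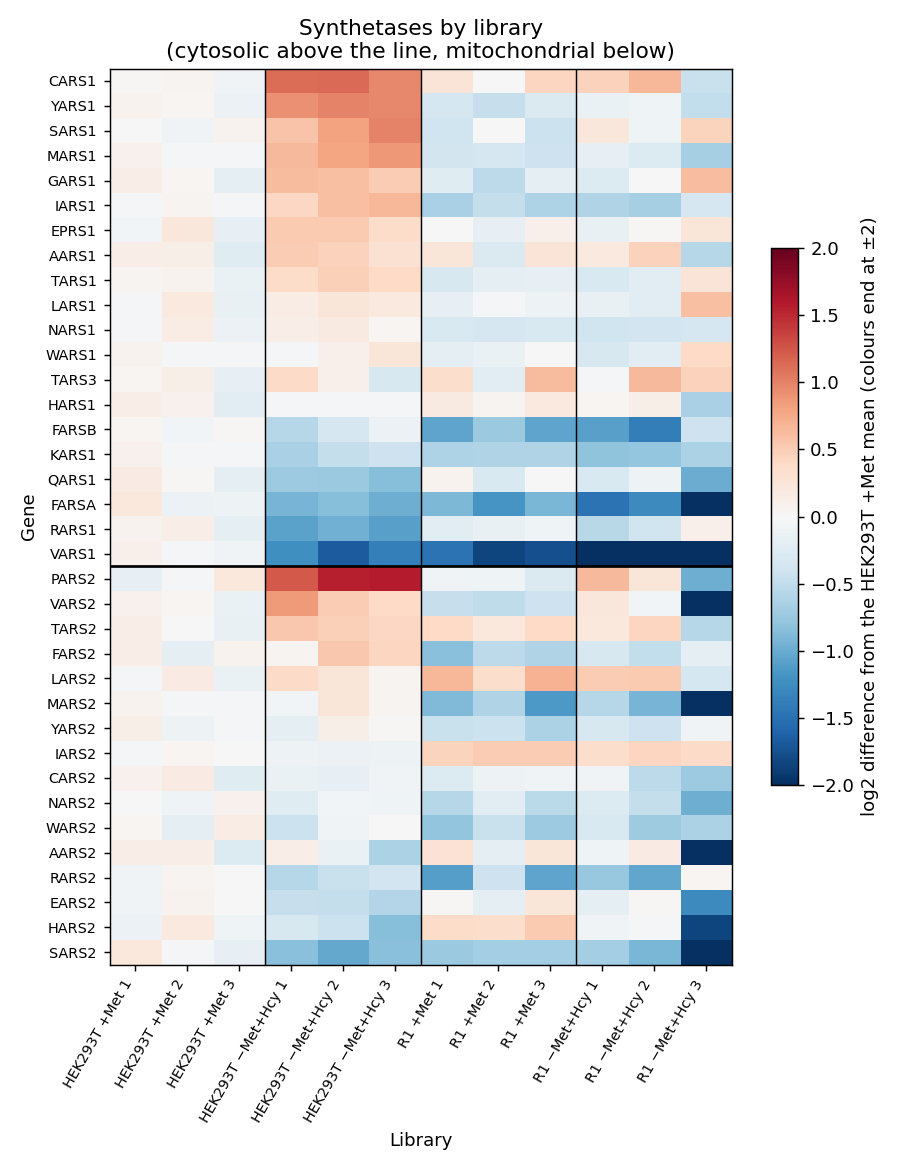
Log2 difference of each library from the HEK293T +Met mean for the synthetases shown, ordered by their HEK293T response, cytosolic above and mitochondrial below the line; red is higher and blue is lower, and colours end at 2 in either direction. Of the block of red in HEK293T −Met+Hcy at the top, YARS1, MARS1 and IARS1 are not red in R1 −Met+Hcy replicates 1 and 2, whereas CARS1 and AARS1 are. YARS1, MARS1 and IARS1 also lie below the HEK293T +Met mean in R1 +Met, so these colours mix the line difference with the medium response. R1 −Met+Hcy replicate 3 is the darkest column among the mitochondrial genes shown.

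Within R1 −Met+Hcy replicate 3, synthetases of higher GC content tended to be lower. For the 37 synthetases with a known GC content, that library was compared with the other libraries of its group. Its deviation had a Spearman's rho of −0.702 with GC content, a description over genes that share a library. In R1 −Met+Hcy replicates 1 and 2, whose deviation is taken in part from replicate 3, rho was 0.647 and 0.637. In the other groups it ran from −0.428 to 0.621. The median GC content was 47.3% for cytosolic and 49.9% for mitochondrial transcripts. The part of GC content in the results for R1 −Met+Hcy was not tested beyond the fits with its trend removed.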

How the data were processed

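Gene counts of 12 libraries were analysed. The authors quantified reads with kallisto 0.48.0 against GRCh38, added the estimated counts of each gene's transcripts, and deposited them as whole-number counts without scaling. Library preparation and strand settings were not given in the sources used here.

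Genes with a summed count of at least 10 (17162 of 23500) were tested in R 4.3.3 with edgeR 4.0.16 (quasi-likelihood, TMM, 1 mean for each of the 4 groups, 8 residual degrees of freedom), and the Benjamini-Hochberg adjustment ran over every tested gene. A gene was called at an adjusted p under 0.05. DESeq2 1.42.0 and limma 3.58.1 (voom with sample weights) were alternatives, and the procedure was tested on simulated data. The members and lists were chosen with earlier results of these data known. Per-library values are given for called members, at most the 10 of smallest p-value in each comparison, or the 3 of smallest p-value where none was called, and for MARS1 and MARS2, with called partner genes, ATF4 and ASNS. Other members are given by counts and ranges, and some enter the counts while their own values are not reported here. Coordinates, lengths and GC content are from GENCODE on GRCh38. Libraries of MB468 and R8 were not used here.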

Additional observations from a re-analysis of the deposited data

How the results depend on the processing

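The number of synthetases called is given with the share of all genes called in the same fit. In HEK293T cells it was 7 with all libraries (7.03%), 12 in DESeq2 (13.9%), 11 with library totals as scaling (11.7%), 22 in edgeR on the libraries of the comparison only (34.2%), 26 in limma voom with sample weights (46.4%), 14 with the trend on GC content and length removed (19.8%), 22 with that trend removed and R1 −Met+Hcy replicate 3 left out (37.8%), and 3 where an absolute log2 fold change over 1 was also asked (4.63%). For R1 against HEK293T in +Met it was 5 (10.2%), and in the same order 12 (17.9%), 3 (15.2%), 15 (30.0%), 24 (52.2%), 11 (20.6%), 19 (38.7%) and 1 (7.66%). For R1 against HEK293T in −Met+Hcy it was 8 (14.0%), and DESeq2 gave 13 (21.5%), the libraries of the comparison only 3 (3.01%), voom 24 (41.9%), no filter on low counts 5 (8.55%), the removed trend 14 (29.7%), the removed trend without replicate 3 22 (38.1%), and the fold threshold 4 (9.95%). For the difference of the responses, with 0 called (0.0583%), DESeq2 gave 2 (1.44%), voom 12 (13.4%) and the removed trend without replicate 3 7 (8.41%). In R1 cells 0 were called under each of these. The scaling by library totals, the removed trend together with the left-out library, and the summed entries were chosen after the data were seen.

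With 1 library left out the numbers ran from 2 to 20 in HEK293T, from 0 to 19 for the lines in +Met and from 3 to 20 in −Met+Hcy, and each highest number was without R1 −Met+Hcy replicate 3, where 27.7%, 32.7% and 30.3% of all genes were called. With the replicate number as a block they were 3 (3.60%), 3 (6.54%) and 5 (9.67%), with 0 in R1 cells and 0 for the difference. Across groups, same-numbered libraries had correlations of their deviations from the group means from −0.718 to 0.595. Libraries of different number had correlations from −0.763 to 0.766. These values show no pairing by number, but with 3 libraries per group they cannot exclude it.

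The cytosolic median minus the mitochondrial median was 0.22 in HEK293T cells (SD over replicates 0.0441) and ran from 0.179 to 0.263 over the alternatives, with 0.221 under the block. In R1 cells it was 0.17, below its SD of 0.529, and its sign was not stable. It was −0.0617 in voom, −0.00334 without R1 −Met+Hcy replicate 3, −0.0124 with the trend removed and that library left out, 0.342 without R1 −Met+Hcy replicate 1 and 0.293 with the block. Of the single genes followed, the directions that turned were those of MARS1 in R1 cells and of MARS2 in both lines and in the difference of responses, none of them called with all libraries. MARS2 stood at 0.08 in HEK293T and −0.39 in R1 cells with all libraries, at −0.47 for the difference of responses, and MARS1 in R1 cells at 0.02. MARS2 in HEK293T cells was −0.00694 with the trend removed, −0.00793 with the trend removed and replicate 3 left out, and −0.00242 to 0.15 without 1 library. MARS1 in R1 cells was −0.00401 with library totals and −0.0869 to 0.15 without 1 library. MARS2 in R1 cells was 0.159 in voom, 0.0823 with the trend removed and replicate 3 left out, and −0.903 to 0.121 without 1 library. For the difference of responses, MARS2 was 0.0902 with the trend removed and replicate 3 left out, and −0.986 to 0.0379 without 1 library.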

Other observations

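The entries of the valyl and cysteinyl genes show how the summed counts divide. VARS1 had 7 entries, and R1 −Met+Hcy replicate 3, with 0 counts in the entry used, had 358 over the distinct entries, against 892 and 1297 in the other libraries of its group. With distinct entries summed, VARS1 was lower in R1 than in HEK293T cells in both media. Its log2 fold changes were −1.85 ± 0.37 (adjusted p = 0.00822) in +Met and −1.28 ± 0.37 (adjusted p = 0.0352) in −Met+Hcy. These VARS1 sums include entries with equal counts in every library except HEK293T +Met replicate 1 (1678 and 1629). Whether the VARS1 values rest on adding both was not tested. CARS1 was lower in −Met+Hcy (−0.83 ± 0.19, adjusted p = 0.0115).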
